A study of Homo sapiens with 6 samples.

Results

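The genes described here encode the cullin-RING ubiquitin ligases: the cullins, their RING and adaptor partners, the exchange factor CAND1 and the F-box proteins. They were chosen by symbol as protein-coding genes named CUL, FBXO, FBXW or FBXL with a number, together with RBX1, RNF7, SKP1, SKP2, CAND1, BTRC and CCNF. The rule found 78 of the 60719 genes in the tables. They comprise 12 core subunits (8 cullins, the RING proteins RBX1 and RNF7, the adaptor SKP1 and CAND1) and 66 F-box genes. RNA was sequenced from human pluripotent stem cells (hPSCs), embryonic stem cells that the labels give as the H1 and H9 lines, after 96 h in simulated microgravity (sµg; labelled Test, 3 libraries) or in normal gravity (1g; labelled Control, 3 libraries). All cells were grown on Matrigel in StemFlex Medium. For sµg, chamber slides were turned on a fast-rotating 2-D clinostat, and 1g slides stood still, so rotation itself and simulated weightlessness cannot be told apart. The methods place the sµg slides, filled completely with medium, in a dedicated incubator and do not say so for the 1g slides. Such differences, if present, cannot be told apart from rotation either. The sources used here do not say which library came from which line, nor that the libraries of 1 condition came from separate cultures, so p-values measure the spread between these libraries, which may be technical. The methods call the 1g samples matched but do not say by what.

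A cullin is a scaffold. Its C-terminal end holds a RING protein that recruits the ubiquitin-conjugating enzyme, and its N-terminal end holds an adaptor with a substrate receptor. In the SCF ligases the scaffold is CUL1, the adaptor is SKP1 and the receptor is an F-box protein, named FBXW when it carries WD40 repeats, FBXL when it carries leucine-rich repeats and FBXO otherwise. The ubiquitin-like protein NEDD8 is attached to the cullin to switch the ligase on, the COP9 signalosome removes it, and CAND1 then exchanges one receptor for another. SCF ligases and the related anaphase promoting complex drive the ordered removal of cell-cycle regulators, and hPSCs divide with a short G1 phase.

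Depth was 19971086 to 20588173 expected counts per sµg library and 20876959 to 28506835 per 1g library, and the typical variation between libraries of 1 condition was 3.96% (biological coefficient of variation). Levels are given as CPM (expected counts per 1000000, after TMM scaling between libraries) where conditions are compared, and as TPM, which is per length, where genes are compared. A gene was called when its adjusted p was under 0.05 in edgeR's quasi-likelihood test over the 16763 genes that passed the filter on low counts, and every fold change is sµg over 1g on the log2 scale. Of 16 pluripotent markers 1 was higher and 5 were lower, with a summed level of 11891 to 12093 CPM in sµg and 14445 to 14813 CPM in 1g. Trophectoderm and amnion markers were lower for 8 of the 9 tested (of 13 listed, CGA at 0), with a sum of 19.6 to 21.8 CPM in sµg and 69.0 to 72.7 CPM in 1g. Of the other marker lists, neural genes were 2 higher and 6 lower of 9 tested (484 to 515 CPM in sµg, 557 to 575 CPM in 1g), mesoderm genes 1 and 2 of 5 (124 to 128 CPM in sµg, against 109 to 117 CPM in 1g), endoderm genes 1 and 2 of 6 (8.20 to 11.2 CPM in sµg, against 8.68 to 10.2 CPM in 1g, TTR at 0) and fibroblast genes 2 and 2 of 5 (509 to 538 CPM in sµg, against 718 to 743 CPM in 1g, FAP at 0). Apart from the endoderm sums, which overlapped, these sums differed between the same conditions as the members below. Their part in the members' differences was not tested. In bulk RNA fewer cells of a type and less RNA per cell cannot be told apart.

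Of the 78 genes, 69 passed the filter. Among these 18 were higher in sµg (26.1%) and 13 were lower (18.8%), against 15.5% and 18.2% of all genes tested. Together 31 of the 69 (44.9%) were called, against 33.7% of all genes and 37.1% of protein-coding genes, and the members were more abundant, with a median of 28.9 CPM against 17.0 CPM over all genes. For 34 members (49.3%) all sµg libraries lay on one side of all 1g libraries, against 45.5% of all genes. That share and the share lower were near those of all genes. The share higher and the share called were above them, and no test was made over the list. The median log2 fold change was 0.05 over the members and 0.01 over all genes. The called members that were higher had a median of 0.19 and at most 0.37, and those that were lower had a median of -0.41 and reached -1.04. All called genes leaned the same way, with medians of 0.25 and -0.43. Past an absolute log2 fold change of 0.5 there were 0 higher and 4 lower members (FBXO2, FBXO6, FBXO17 and FBXO41), and over all genes 328 higher and 1292 lower.

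**Figure D1:**
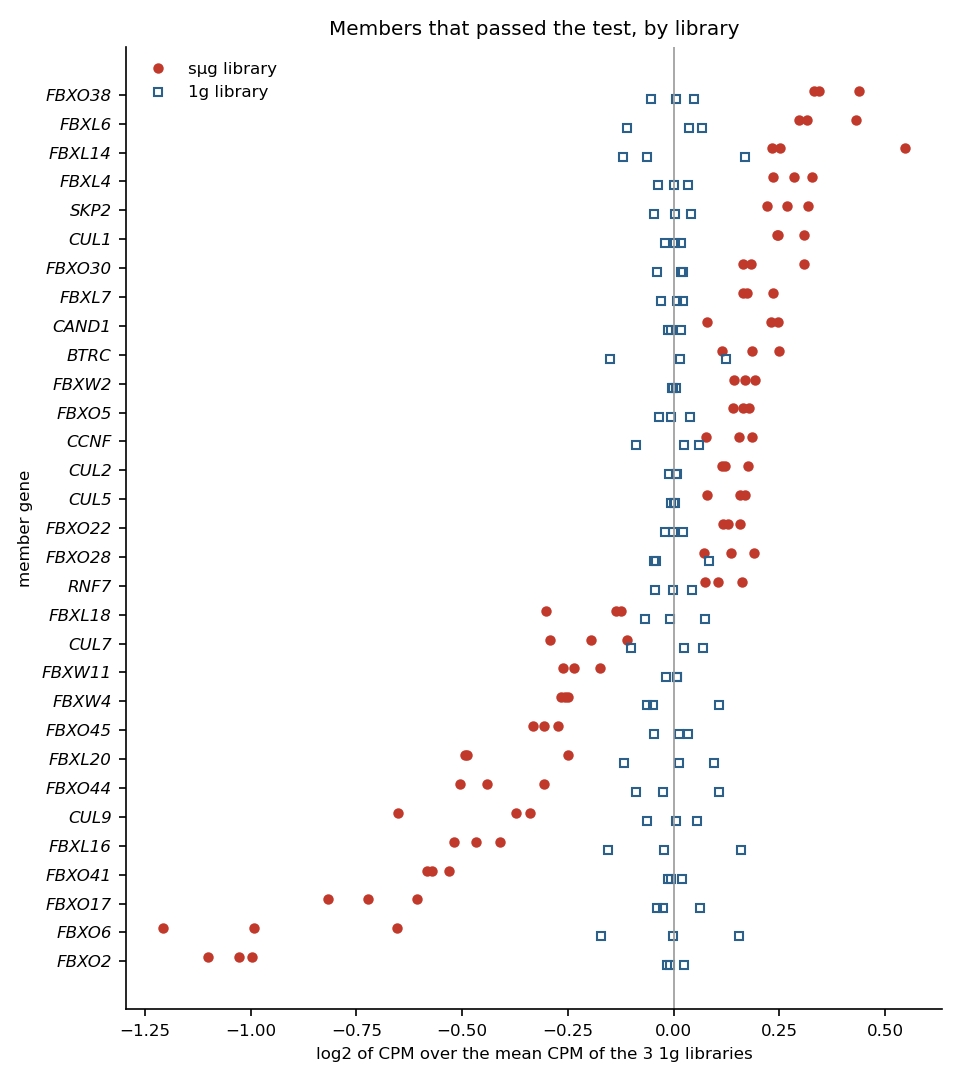
CPM of the 31 called members in each library, as log2 of the ratio to the mean of the 3 1g libraries (x axis), 1 gene per row (y axis), with filled circles for sµg libraries and open squares for 1g libraries. FBXO2 lies near -1 in all 3 sµg libraries, while no higher member has a log2 fold change above 0.37.

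Counts of calls depended on the processing. DESeq2 called 8 members higher and 10 lower, and an offset for effective gene length left 6 higher and 8 lower. Members given below as lost with DESeq2, apart from FBXO6, were also lost with the length offset and with limma on log2(TPM + 1). CUL9, FBXL16, FBXL20 and FBXO38 kept their calls with DESeq2 but were lost with both of those settings. Leaving out single libraries gave 7 higher members without the third 1g library, 10 without the second sµg library and 11 without the first 1g library. Under all 15 alternatives other than stricter thresholds, the members called higher each time were CUL1, SKP2, CAND1, FBXW2 and FBXL6, and those called lower each time were FBXO2, FBXO17, FBXO41, FBXO44, FBXO45 and FBXW4. The deposited quantification is not stated to use strand, and 34 of the 69 tested members, 15 of the 31 called, overlap another tested gene in position, so reads of such pairs may be shared. Among called members whose overlap is not given below, FBXW2 overlaps B3GALT9, FBXL14 overlaps WNT5B and FBXO30 overlaps EPM2A-DT. CUL1, FBXO5, FBXO17 and FBXL16 each overlap a tested gene that has no symbol.

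Among the core subunits, 5 of 12 were higher (CUL1, CAND1, CUL2, CUL5 and RNF7) and 2 were lower (CUL9 and CUL7). These shares were 41.7% and 16.7%, against 15.5% higher and 18.2% lower of all genes tested. CUL1, the scaffold of the SCF ligases, had 126, 126 and 132 CPM in sµg, against 105, 107 and 108 CPM in 1g. Every sµg library was above every 1g library, and the log2 fold change was 0.27 ± 0.04 (SE, adjusted p = 2.51e-05, edgeR). CAND1, which exchanges the receptors bound to CUL1, had 287, 283 and 255 CPM in sµg and 240.4, 244 and 239 CPM in 1g. Its groups did not overlap either, with the third sµg library closest to 1g, and the log2 fold change was 0.19 ± 0.04 (adjusted p = 0.002).

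The adaptor and the main RING protein of the SCF ligases passed no test. SKP1 had 283, 279.8 and 299.6 CPM in sµg and 275, 284 and 276 CPM in 1g, which overlapped, with a log2 fold change of 0.05 (95% interval -0.03 to 0.13, adjusted p = 0.351). RBX1 had 68.2, 75.2 and 79.9 CPM in sµg and 75.2, 71.0 and 76.4 CPM in 1g (0.00, interval -0.11 to 0.11, adjusted p = 0.974). The intervals leave room for changes of about the size seen in the weakest calls. RNF7, the RING protein that works with CUL5, had 82.8, 84.6 and 88.0 CPM in sµg and 76.3, 78.6 and 81.0 CPM in 1g, a difference of 0.11 ± 0.04 (adjusted p = 0.0431).

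CUL2 and CUL5 both carry elongin adaptors, with the VHL and SOCS-box receptors. CUL2 had 50.3, 52.3 and 50.1 CPM in sµg and 46.5, 46.4 and 45.9 CPM in 1g (0.14 ± 0.05, adjusted p = 0.0256), and it overlaps CREM. CUL5 had 54.7, 57.8 and 58.2 CPM in sµg and 51.6, 51.9 and 52.0 CPM in 1g (0.14 ± 0.04, adjusted p = 0.0265). These small differences exceeded the spread between libraries, but the calls of CUL2, CUL5 and RNF7 were lost with DESeq2 (adjusted p = 0.114, 0.104 and 0.114). The same calls were lost with the length offset (adjusted p = 0.352, 0.154 and 0.338). CUL2 also lost its call without the second sµg library (adjusted p = 0.10) or without the first, the second or the third 1g library (0.0666, 0.0620 and 0.0831), and CUL5 without the same libraries (0.0826, 0.0830, 0.0673 and 0.0714). RNF7 lost its call without the second or the third sµg library (0.0779 and 0.0562) or the first, the second or the third 1g library (0.190, 0.107 and 0.0533).

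The scaffolds of the BTB and DDB1 ligases passed no test over all 6 libraries. CUL3, which carries BTB proteins, had 122, 118 and 105 CPM in sµg and 107, 112 and 106 CPM in 1g (0.09, interval -0.01 to 0.20, adjusted p = 0.178). The third sµg library lay below all 1g libraries, and without it CUL3 was called higher (0.16, adjusted p = 0.00046). CUL4B, a scaffold of the DDB1 ligases that overlaps MCTS1, had 76.0, 74.3 and 71.4 CPM in sµg and 72.3, 69.7 and 67.1 CPM in 1g (0.08, interval -0.01 to 0.18, adjusted p = 0.169), and was also called without the third sµg library (0.11, adjusted p = 0.0363). CUL4A, its paralog, had 121, 119.6 and 122 CPM in sµg and 122, 118 and 117 CPM in 1g (0.02, interval -0.06 to 0.10, adjusted p = 0.694).

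The cullins that were lower are the large atypical scaffolds. CUL9 had 6.06, 7.35 and 7.53 CPM in sµg, against 9.11, 9.89 and 9.56 CPM in 1g (-0.45 ± 0.10, adjusted p = 0.00279). Its effective length, the length that RSEM assigns from the transcripts in use, averaged 3357 bases in sµg and 4121 bases in 1g. Per length the difference was smaller: CUL9 had 2.78 ± 0.489 TPM in sµg and 3.04 ± 0.512 TPM in 1g (SD, n = 3 each), and with the length offset the log2 fold change was -0.16 (adjusted p = 0.568). CUL7, the scaffold of the 3M growth complex, had 28.2, 30.2 and 32.0 CPM in sµg and 35.1, 36.3 and 32.2 CPM in 1g (-0.20 ± 0.06, adjusted p = 0.0183), and it overlaps KLC4. That call was lost with DESeq2 (adjusted p = 0.0949), without the first sµg library (0.0953) and without the first or second 1g library (0.0791 and 0.0950).

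Per length, SKP1 stood far above every other member, at 660.0 ± 10.2 TPM in sµg and 623 ± 10.1 TPM in 1g. RNF7 followed with 132 ± 4.32 TPM in sµg and 121 ± 7.07 TPM in 1g, and CAND1 with 111 ± 10.5 TPM in sµg and 90.7 ± 4.05 TPM in 1g (SD, n = 3 each). RBX1 had 103 ± 5.83 TPM in sµg and 102 ± 3.38 TPM in 1g, and CUL4A had 68.7 ± 2.36 TPM in sµg and 58.8 ± 5.49 TPM in 1g. Within sµg, CAND1 and RBX1 did not differ beyond their spread. Among the cullins the order was CUL4A, CUL3, CUL1, CUL2, CUL4B, CUL5, CUL7 and CUL9, by the mean over all libraries. CUL3 and CUL1 did not differ beyond their spread in sµg (61.3 ± 6.75 and 61.2 ± 0.457 TPM), nor did CUL4A and CUL3 in 1g (58.8 ± 5.49 and 55.3 ± 1.93 TPM). The summed cullin level was 264 ± 9.68 TPM in sµg and 233 ± 8.24 TPM in 1g, and the sums did not overlap (253.6 to 273 TPM in sµg, 223 to 239 TPM in 1g). In CPM the sum differed less, at 583 ± 4.43 in sµg and 545 ± 7.42 in 1g. CUL4A, which had a log2 fold change of 0.02 in CPM, had an effective length of 2333 bases in sµg and 2630.2 bases in 1g. The summed F-box level was 907 ± 22.6 TPM in sµg and 910.0 ± 16.5 TPM in 1g, so the higher and lower F-box genes left the total within the spread between libraries.

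**Figure D2:**
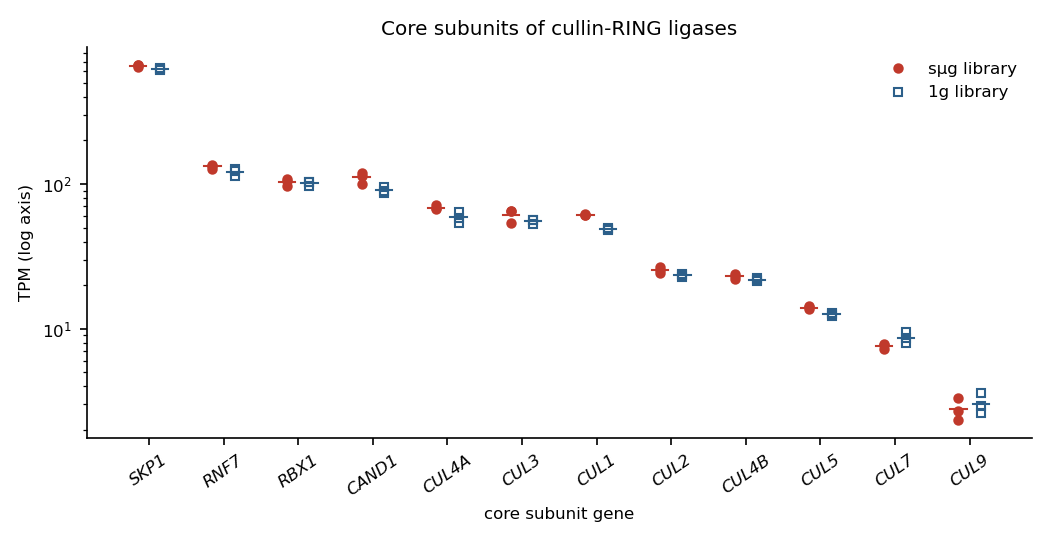
TPM of the 12 core subunits (x axis, highest mean first) on a log axis (y axis), with filled circles for sµg libraries, open squares for 1g libraries and a line at each mean. CUL1 stands apart between conditions (61.2 TPM in sµg, 49.0 TPM in 1g), while RBX1 does not (103 TPM in sµg, 102 TPM in 1g).

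F-box genes counted 13 higher (22.8%) and 11 lower (19.3%) of 57 tested, against 15.5% and 18.2% of all genes tested. By class, FBXW with BTRC had 2 higher and 2 lower of 8, and FBXL with SKP2 had 5 higher and 3 lower of 16. FBXO with CCNF had 6 higher and 6 lower of 33 (18.2% each), which was near the shares of all genes. Receptors best known from the cell cycle are given first. SKP2, which marks the CDK inhibitor CDKN1B for destruction and so lets cells enter S phase, had 102, 98.9 and 106 CPM in sµg, against 85.1, 87.4 and 82.3 CPM in 1g. All sµg libraries lay above all 1g libraries, with a log2 fold change of 0.27 ± 0.04 (adjusted p = 5.95e-05). SKP2 overlaps NADK2 in position.

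FBXO5 (EMI1), an inhibitor of the anaphase promoting complex, had 54.5, 55.9 and 55.3 CPM in sµg, against 49.2, 50.8 and 48.3 CPM in 1g (0.16 ± 0.04, adjusted p = 0.00947). Its call was lost with the length offset (adjusted p = 0.0636), with block and length offset (0.0924) and without the third 1g library (0.0525). CCNF, the cyclin from which the F-box takes its name, had 60.7, 62.0 and 57.5 CPM in sµg, against 51.3, 56.8 and 55.5 CPM in 1g (0.14 ± 0.05, adjusted p = 0.034). The groups did not overlap for either gene. The CCNF call was lost with DESeq2 (adjusted p = 0.108), without the first or second sµg library (0.0919 and 0.128) and without the first or the third 1g library (0.208 and 0.0655). FBXW7, which recognises cyclin E and MYC, had 21.8, 19.6 and 18.7 CPM in sµg and 20.5, 19.6 and 18.1 CPM in 1g (0.04, interval -0.11 to 0.20, adjusted p = 0.689).

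The paralogs BTRC and FBXW11 encode the β-TrCP proteins, which recognise phosphorylated β-catenin and IκB, and they differed in opposite directions. BTRC had 36.4, 34.8 and 33.1 CPM in sµg, against 30.9, 33.3 and 27.5 CPM in 1g (0.19 ± 0.07, adjusted p = 0.0348). Its lowest sµg library lay just under its highest 1g library, and the call was lost with DESeq2 (adjusted p = 0.112), without the first or second sµg library (0.135 and 0.0777) and without the first or the third 1g library (0.0830 and 0.205). FBXW11 had 114, 109 and 107 CPM in sµg, against 129, 129 and 127 CPM in 1g, with no overlap (-0.22 ± 0.04, adjusted p = 0.000183), and lost its call with limma on log2(TPM + 1) (adjusted p = 0.0688). Per length FBXW11 stayed the more abundant paralog, as the log2 ratio of BTRC to FBXW11 in TPM was -2.12 ± 0.10 in sµg and -2.57 ± 0.06 in 1g (SD, n = 3 each), a contrast taken up after the values were seen.

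At transcript level 1 protein-coding transcript of FBXW11 was called lower. FBXW11-202 had 5.96, 8.31 and 6.68 TPM in sµg, against 12.8, 13.7 and 12.9 TPM in 1g (-0.95 ± 0.13, adjusted p = 0.0290 over 53807 transcripts). FBXW11-201, the most abundant transcript, had 22.6, 19.0 and 19.4 TPM in sµg and 17.5, 17.7 and 18.1 TPM in 1g (0.15 ± 0.07, adjusted p = 0.465). As a share of the gene's TPM, FBXW11-202 made up 15.3 ± 2.89% in sµg and 25.2 ± 1.29% in 1g, and FBXW11-201 made up 44.5 ± 2.94% in sµg and 34.2 ± 1.58% in 1g. The shares of both transcripts did not overlap between conditions, but the test of transcript use over the gene missed the threshold (adjusted p = 0.0842, edgeR).

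**Figure D3:**
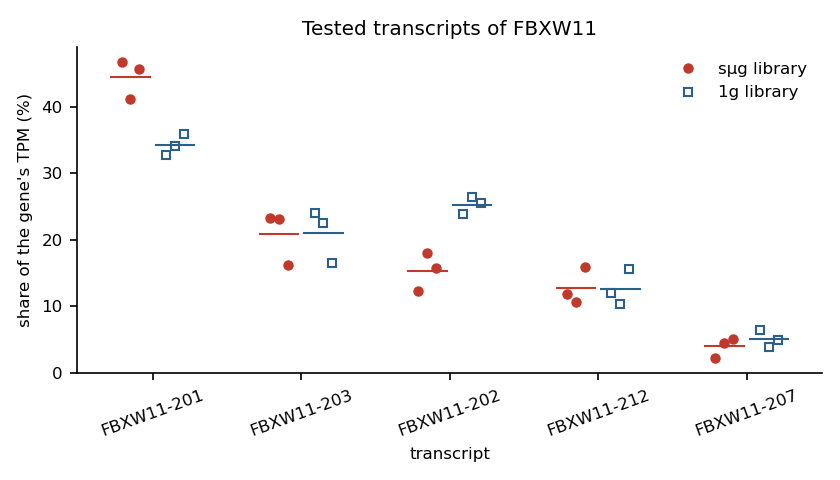
Share of the FBXW11 TPM (y axis, %) of each tested FBXW11 transcript (x axis, most abundant first), with filled circles for sµg libraries, open squares for 1g libraries and a line at each mean. FBXW11-202 made up 15.3% in sµg and 25.2% in 1g, and FBXW11-201 made up 44.5% in sµg and 34.2% in 1g.

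Over all members, 4 of 237 tested transcripts (1.69%) were called, against 1.76% of all transcripts, and all 4 were lower: FBXO2-201, FBXO17-201, FBXO41-201 and FBXW11-202. At an unadjusted p under 0.05 there were 12 higher and 16 lower. With the replicate number as a block 0 transcripts were lower, and 1 was lower when the first sµg library or any of the 3 1g libraries was left out. Transcript use was called for 0 of 55 members, against 1.01% of all genes with several tested transcripts, with 4 members at an unadjusted p under 0.05 (FBXW11, CUL3, FBXO8 and CCNF) and 2 called without the second sµg library.

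The largest F-box differences, those of FBXO2, FBXO6 and FBXO17, fell in the FBA family, whose shared C-terminal domain binds N-linked glycans in FBXO2, FBXO6 and FBXO27; FBXO2 and FBXO6 are known for clearing misfolded glycoproteins. They were grouped after their values were seen, so the counts are a description. Of the 5 members (FBXO2, FBXO6, FBXO17, FBXO27 and FBXO44) 4 were lower and 0 higher, while the other F-box genes had 13 higher and 7 lower of 52. Over all genes tested 15.5% were higher and 18.2% lower. Together the family held 78.6 ± 3.74 TPM in sµg and 131 ± 5.46 TPM in 1g, which was 8.67 ± 0.50% of the summed F-box TPM in sµg and 14.4 ± 0.69% in 1g (SD, n = 3 each).

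FBXO2, the family's most abundant member and known as brain-enriched, had 29.6, 31.1 and 31.7 CPM in sµg, against 63.0, 64.5 and 62.7 CPM in 1g. Every sµg library was at about the same level and far below every 1g library, with a log2 fold change of -1.04 ± 0.05 (0.486-fold, adjusted p = 1.09e-11). FBXO17 had 11.7, 13.6 and 12.5 CPM in sµg, against 20.1, 20.3 and 21.6 CPM in 1g (-0.71 ± 0.07, adjusted p = 7.06e-07). FBXO44 had 21.4, 24.5 and 22.4 CPM in sµg, against 28.5, 29.8 and 32.7 CPM in 1g (-0.41 ± 0.07, adjusted p = 0.000112). No values of these genes overlapped between conditions.

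FBXO6 was barely expressed, with 0.577, 0.497 and 0.729 CPM in sµg, against 1.28, 1.02 and 1.15 CPM in 1g, from 37 counts over the sµg libraries and 83 over the 1g libraries (-0.93 ± 0.30, adjusted p = 0.0207). Its call was lost with DESeq2 (adjusted p = 0.152), without the first or second sµg library (0.0630 and 0.0830) and without the first or the third 1g library (0.0956 and 0.0544). It overlaps MAD2L2 on the opposite strand, which had 216 ± 8.66 CPM in sµg and 281 ± 1.90 CPM in 1g, so some FBXO6 reads may come from MAD2L2. FBXO27 did not follow the other members, at 7.59, 8.40 and 9.33 CPM in sµg and 7.69, 9.60 and 8.42 CPM in 1g (-0.01, interval -0.24 to 0.22, adjusted p = 0.939), although it lies next to FBXO17 on chromosome 19 (chr19:38990714-39032785, GENCODE 44 on GRCh38).

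**Figure D4:**
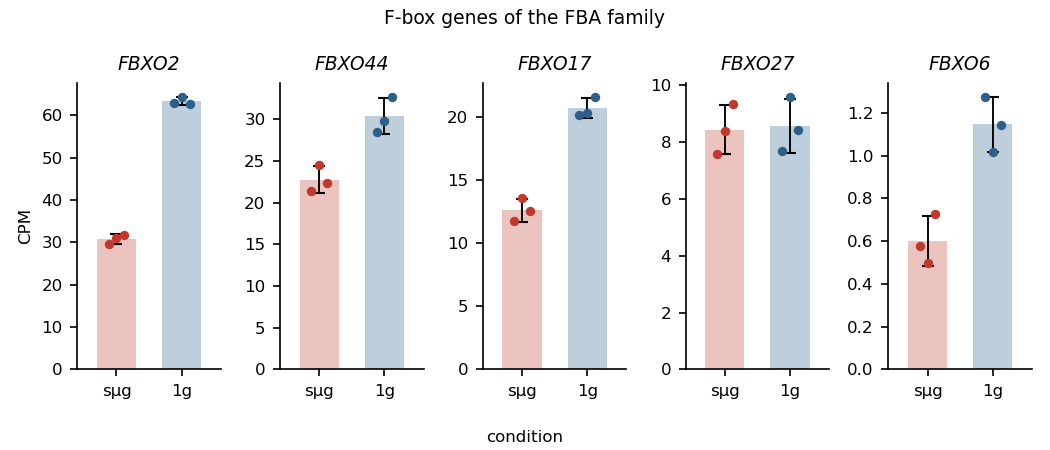
CPM (y axis, a separate linear scale from 0 for each gene) of the FBA family members in sµg and 1g (x axis), with points for libraries, bars for means and error bars for the SD of 3 libraries. FBXO2 averages 30.8 CPM in sµg and 63.4 CPM in 1g, and FBXO27 overlaps between conditions.

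FBXO2, FBXO44 and FBXO6 lie side by side on chromosome 1. Within 100 kb of FBXO2 (chr1:11637018-11655785, minus strand), 7 genes were tested, FBXO2 included. Of these 6 were lower, against 18.2% of all genes tested. They were these 3 members, already found lower before the search, and MAD2L2 (-0.38 ± 0.04), DRAXIN (-0.50 ± 0.04) and AGTRAP (-0.23 ± 0.05). DISP3 was not called (0.09 ± 0.13, adjusted p = 0.636). The neighbours were looked up after the values were seen. FBXO2 and FBXO44 run in opposite directions and overlap at their starts, and FBXO44 also overlaps MAD2L2, so reads of these genes may be mixed in part. The RefSeq promoter windows (300 bases, 250 before to 50 after the start, build GRCh38.p14) are shown because 2 of them share sequence: the starts of FBXO2 and FBXO44 lie 22 bases apart and the windows share 77 bases, whereas the FBXO6 start is 9793 bases from that of FBXO44. The windows are FBXO2 chr1:11654380-11654679 (minus), FBXO44 chr1:11654157-11654456 (plus) and FBXO6 chr1:11663950-11664249 (plus), each printed from 5′ to 3′ on its gene's strand, with capitals marking the GC box letters GGGCGG on either strand.
FBXO2: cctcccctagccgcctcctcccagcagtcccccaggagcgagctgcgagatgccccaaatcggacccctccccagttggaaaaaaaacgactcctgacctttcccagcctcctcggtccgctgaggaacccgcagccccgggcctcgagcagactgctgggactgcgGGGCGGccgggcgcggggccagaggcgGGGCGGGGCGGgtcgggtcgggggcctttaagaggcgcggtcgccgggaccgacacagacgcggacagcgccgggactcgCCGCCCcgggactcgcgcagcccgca
FBXO44: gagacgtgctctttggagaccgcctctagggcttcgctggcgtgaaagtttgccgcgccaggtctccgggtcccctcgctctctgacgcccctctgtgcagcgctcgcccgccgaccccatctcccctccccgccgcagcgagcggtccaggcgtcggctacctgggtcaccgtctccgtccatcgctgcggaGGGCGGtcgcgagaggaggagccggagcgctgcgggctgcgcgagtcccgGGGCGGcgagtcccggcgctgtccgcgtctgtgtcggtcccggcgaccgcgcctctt
FBXO6: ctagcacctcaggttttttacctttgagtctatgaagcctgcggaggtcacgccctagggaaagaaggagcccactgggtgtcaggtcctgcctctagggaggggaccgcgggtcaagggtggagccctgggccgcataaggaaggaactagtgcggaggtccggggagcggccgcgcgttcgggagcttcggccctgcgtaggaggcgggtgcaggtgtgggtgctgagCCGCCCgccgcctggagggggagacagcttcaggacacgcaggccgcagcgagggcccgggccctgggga

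The FBXO2 window holds 4 GC boxes, of which 2 share a base, the FBXO44 window holds 2 and the FBXO6 window holds 1. In the bases shared by the FBXO2 and FBXO44 windows, 1 GC box is the same site and is counted in both. Windows were matched for 62 of the 78 members, 54 of them tested. A GC box was found in 43 of these 54 (79.6%) and in 45.0% of all 35116 RefSeq promoter windows, which include noncoding genes. The CCAAT letters were found in 14 (25.9%, against 34.6% of all windows), the E-box CACGTG in 6 (11.1%, against 7.26%) and the E2F letters TTTCCCGC or TTTGGCGC in 1 (1.85%, against 2.27%), searched on both strands. A match describes letters in the window and is not a bound site.

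Outside the FBA family 7 F-box genes were lower, FBXW11 among them. FBXO41, a neuronal F-box protein, had 27.0, 27.8 and 26.8 CPM in sµg, against 40.0, 39.8 and 40.7 CPM in 1g (-0.56 ± 0.05, adjusted p = 1.12e-07). FBXO45, which pairs with the ligase MYCBP2 in axons, had 32.4, 31.1 and 31.6 CPM in sµg, against 39.5, 37.9 and 40.1 CPM in 1g (-0.30 ± 0.05, adjusted p = 0.000145), and it overlaps WDR53. Neither gene's groups overlapped. FBXL20, which in mouse acts at synapses, had 11.3, 9.54 and 9.57 CPM in sµg, against 13.5, 14.4 and 12.4 CPM in 1g (-0.40 ± 0.09, adjusted p = 0.0023). Its effective length averaged 2661 bases in sµg and 3018 bases in 1g, and with the length offset the difference was -0.23 (adjusted p = 0.188).

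FBXL16 had 7.50, 7.80 and 7.24 CPM in sµg, against 10.2, 9.31 and 11.6 CPM in 1g (-0.47 ± 0.10, adjusted p = 0.00154, and 0.0501 with the length offset). FBXW4, linked to limb development in mouse, had 23.7, 23.6 and 23.4 CPM in sµg, against 30.4, 27.0 and 27.2 CPM in 1g (-0.26 ± 0.06, adjusted p = 0.00291). In both, all sµg libraries were below all 1g libraries. FBXL18 had 24.2, 24.0 and 21.4 CPM in sµg, against 27.8, 26.2 and 25.2 CPM in 1g (-0.19 ± 0.07, adjusted p = 0.0324), a call lost with DESeq2 (adjusted p = 0.174), without the third sµg library (0.114) and without the first or second 1g library (0.172 and 0.0723).

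Of the remaining F-box genes that were higher, FBXO38 differed most, with 46.0, 49.6 and 46.5 CPM in sµg, against 35.2, 37.8 and 36.8 CPM in 1g (0.37 ± 0.05, adjusted p = 1.68e-05). FBXO38 is known for removing the receptor PD-1 in T cells, and with the length offset its call was lost (0.28, adjusted p = 0.104). FBXL6 had 20.8, 22.8 and 21.0 CPM in sµg, against 17.3, 15.7 and 17.7 CPM in 1g (0.35 ± 0.07, adjusted p = 0.000915), and it overlaps SLC52A2. FBXW2, a receptor for the placental regulator GCM1, had 74.9, 76.2 and 77.5 CPM in sµg, against 67.6, 67.7 and 68.1 CPM in 1g (0.17 ± 0.04, adjusted p = 0.00331). The libraries of each condition were tightly grouped for FBXW2 and did not overlap. FBXO30 had 66.4, 72.5 and 65.6 CPM in sµg, against 59.4, 59.2 and 56.9 CPM in 1g (0.22 ± 0.05, adjusted p = 0.00145, and 0.0895 with limma on log2(TPM + 1)).

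FBXL14, a receptor for the repressor SNAI1, had 7.40, 7.30 and 9.09 CPM in sµg, against 6.99, 5.72 and 5.95 CPM in 1g (0.34 ± 0.12, adjusted p = 0.0332), with the third sµg library the highest. It lost its call with DESeq2 (adjusted p = 0.138), without the third sµg library (0.141) and without the second or the third 1g library (0.121 and 0.111). FBXL4, which restrains mitophagy, had 11.8, 12.1 and 11.4 CPM in sµg, against 9.68, 9.89 and 9.43 CPM in 1g (0.28 ± 0.08, adjusted p = 0.014), a call lost with DESeq2 (adjusted p = 0.109), without the second sµg library (0.0508) and without the third 1g library (0.0509). FBXL7, a receptor for the mitotic kinase Aurora A, had 21.3, 20.5 and 20.3 CPM in sµg, against 17.8, 18.2 and 18.4 CPM in 1g (0.19 ± 0.06, adjusted p = 0.0264). FBXL7 lost its call with DESeq2 (adjusted p = 0.156), without the first sµg library (0.0890) and without the first, the second or the third 1g library (0.101, 0.0582 and 0.0535).

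FBXO22 and FBXO28 had the smallest fold changes among the called F-box genes. FBXO22, a receptor for KDM4 demethylases and BACH1, had 53.4, 53.8 and 54.8 CPM in sµg, against 49.9, 48.5 and 49.1 CPM in 1g (0.13 ± 0.04, adjusted p = 0.0264). Its effective length averaged 2137 bases in sµg and 1935 bases in 1g, and with the length offset the sign turned (-0.01, adjusted p = 0.899). The call was also lost with DESeq2 (adjusted p = 0.112), without the second sµg library (0.0564) and without the first, the second or the third 1g library (0.0527, 0.0857 and 0.0763). FBXO28 had 71.5, 74.3 and 68.4 CPM in sµg and 69.0, 63.2 and 63.1 CPM in 1g (0.13 ± 0.05, adjusted p = 0.0428), with the groups overlapping, and lost its call with DESeq2 (adjusted p = 0.111), without the first or second sµg library (0.0941 and 0.172) and without the second or the third 1g library (0.160 and 0.176).

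Several receptors with well-known roles passed no test. FBXL5, the iron sensor that controls IREB2, had 72.6, 75.1 and 73.2 CPM in sµg and 72.7, 71.9 and 72.4 CPM in 1g (0.03, interval -0.06 to 0.11, adjusted p = 0.668). FBXO11, a receptor for BCL6, differed by -0.08 (interval -0.19 to 0.03, adjusted p = 0.248). FBXW8, the F-box partner of CUL7, had 26.8, 29.1 and 26.8 CPM in sµg and 31.0, 29.9 and 29.8 CPM in 1g. Its groups did not overlap, but the difference of -0.14 (interval -0.25 to -0.02) missed the threshold (adjusted p = 0.0723) and passed it without the second sµg library (adjusted p = 0.0487). At the low end, the tested members with the lowest mean TPM were FBXO43, FBXO15, FBXO48, FBXO32 and FBXO4, each with a mean under 1 TPM. None was called in the main edgeR test. FBXO32 was called higher with limma on log2(TPM + 0.1) (adjusted p = 0.0489) and with block and length offset (0.0241). FBXO48 was called higher without the first sµg library (adjusted p = 0.0448) or the second 1g library (0.0370), and FBXL12, with -0.13 over all libraries, was called lower without the third sµg library (-0.17, adjusted p = 0.0207).

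The 9 members under the filter were FBXL8, FBXL22, FBXO24, FBXO39, FBXO40, FBXO47, FBXW10, FBXW10B and FBXW12. FBXO47 had 0 counts in all 6 libraries, which allows up to 3 counts per library. The others had at most 35 counts summed over the libraries of 1 condition and were not tested.

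Genes that act on cullins were read from lists of the pathway, described by counts and medians beside the 15.5% higher and 18.2% lower of all genes. Of 12 neddylation genes 8 were higher and 0 lower, with a median log2 fold change of 0.14, and their summed level was 778 to 809.6 CPM in sµg and 679 to 701 CPM in 1g. NAE1, a subunit of the enzyme that activates NEDD8, averaged 177 ± 1.63 CPM in sµg and 137 ± 5.93 CPM in 1g (0.36 ± 0.04, adjusted p = 8.79e-07). GLMN, which blocks RBX1 from recruiting the conjugating enzyme, averaged 41.6 ± 1.28 CPM in sµg and 31.1 ± 2.91 CPM in 1g (0.42 ± 0.06, adjusted p = 3.76e-05), and DCUN1D4, which helps transfer NEDD8, differed by 0.34 ± 0.05 (adjusted p = 8.90e-05). The neddylation count was 6 with DESeq2, 4 with the length offset, 5 without the first, the second or the third 1g library and 6 without the second or the third sµg library. The list holds genes that promote the ligases and, in GLMN, one that inhibits them.

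The COP9 signalosome, which removes NEDD8, had 4 higher and 1 lower of 11 (median 0.12), with 0 to 5 higher and 0 to 2 lower over the alternatives. COPS2 differed by 0.17 ± 0.04 (adjusted p = 0.00164), COPS4 by 0.18 ± 0.05 (adjusted p = 0.00577) and COPS7B by -0.17 ± 0.04 (adjusted p = 0.00385). The anaphase promoting complex had 8 higher and 2 lower of 16 (median 0.12), with 6 to 9 higher and 1 to 3 lower over the alternatives. CDC27 averaged 74.0 ± 3.25 CPM in sµg and 61.3 ± 0.23 CPM in 1g (0.27 ± 0.04, adjusted p = 9.69e-05), CDC16 differed by 0.23 ± 0.04 (adjusted p = 0.00033) and the activator FZR1 by 0.30 ± 0.06 (adjusted p = 0.000339).

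The receptors of the other cullins were split. Of 34 CUL2 and CUL5 adaptors and receptors 6 were higher and 6 lower (median 0.06), with 1 to 9 higher and 4 to 7 lower over the alternatives. SOCS4 and SOCS3, SOCS-box proteins of cytokine and growth factor signaling, differed by -0.62 ± 0.05 (adjusted p = 9.47e-09) and -0.59 ± 0.05 (4.09e-08), and LRR1 by 0.45 ± 0.06 (1.52e-05). Of 48 CUL3 adaptors 12 were higher and 9 lower (median 0.05, with 4 to 14 higher and 1 to 9 lower over the alternatives), among them RHOBTB3 at -0.85 ± 0.08 (2.45e-07), ENC1 at 0.45 ± 0.07 (2.99e-05) and KLHL7 at 0.29 ± 0.04 (6.10e-05). Of 26 CUL4 adaptors and receptors 4 were higher and 4 lower (median 0.02, with 2 to 4 higher and 3 to 4 lower over the alternatives), among them the DNA damage sensor DDB2 at -0.63 ± 0.05 (3.38e-08), DCAF4 at -0.59 ± 0.06 (5.99e-07) and PHIP at 0.25 ± 0.04 (0.000222). OBSL1, a 3M complex partner of CUL7, was the lower gene of its list of 2 (-0.13 ± 0.04, adjusted p = 0.0284), and the list had 0 lower with DESeq2, with the length offset, with limma and without the first sµg library or the first or second 1g library. Of the F-box genes under other symbols 2 of 5 tested were lower: NCCRP1, which carries the FBA domain, averaged 2.39 ± 0.27 CPM in sµg and 4.01 ± 0.49 CPM in 1g (-0.75 ± 0.16, adjusted p = 0.00161), and the histone demethylase KDM2B differed by -0.15 ± 0.04 (adjusted p = 0.00402).

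**Figure D5:**
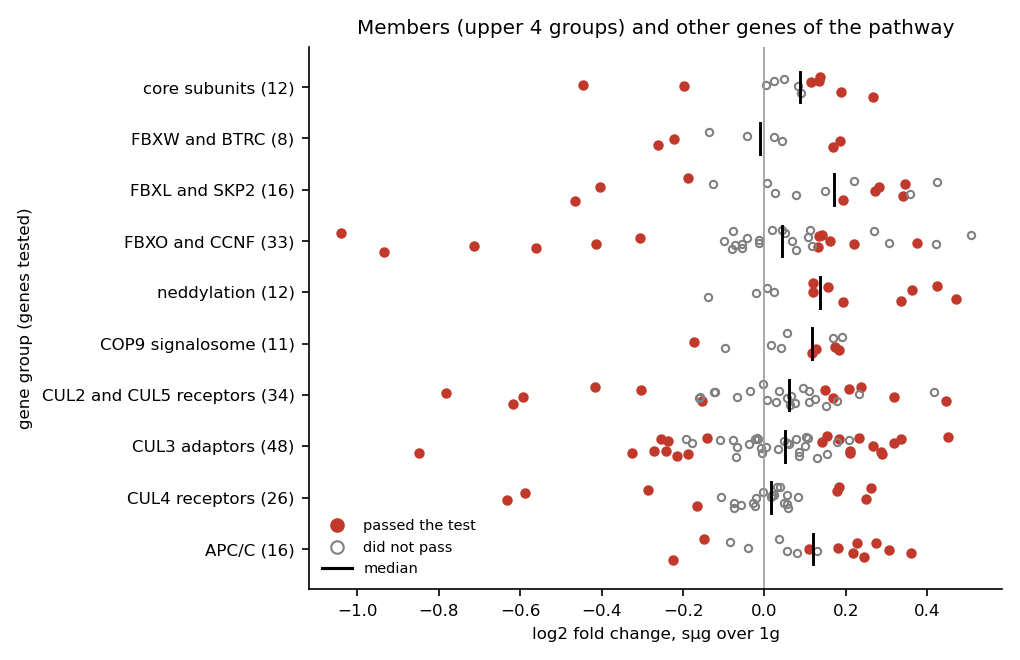
Log2 fold change, sµg over 1g (x axis), of each tested gene in the 4 member groups and 6 pathway lists (y axis, number tested in brackets), with filled circles for genes that passed the test, open circles for those that did not and a line at each median. The neddylation list has 8 higher genes of 12 and 0 lower, and the F-box classes spread to both sides, with FBXO2 at -1.04.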

How the data were processed

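A stranded kit for poly(A) RNA was used for the libraries, with sequencing in read pairs. The authors aligned reads with STAR 2.7.7a to GRCh38.p13 (GENCODE 36) and quantified them with RSEM 1.3.3; of the 2 STAR settings they describe, the one behind the deposited tables is not stated. The deposited expected counts are RSEM estimates of read pairs per gene or transcript, not normalized between libraries. The deposited TPM values are those estimates per unit of effective length, brought to the same total in each library. Symbols and positions came from GENCODE 44 on GRCh38, where 60419 of the 60719 genes were found.

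Expected counts were rounded and tested in R 4.3.3 with edgeR 4.0.16 (quasi-likelihood, robust; filterByExpr with minimum count 10 and total 15; TMM; Benjamini-Hochberg over all genes, or over all transcripts), condition being the single factor. Alternatives were DESeq2 1.42.0, RLE scaling, other filters, an effective length offset, limma 3.58.1 on log2(TPM + 1) or log2(TPM + 0.1), blocking on the replicate number, leaving out each library, and stricter thresholds. An exact permutation test of 3 against 3 libraries cannot go below p = 0.1, so none is given. The gene test was checked on simulated counts. The transcript use test made too many calls in that check, so it is given as a description.

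Members, lists and tests were chosen with earlier results of these data known. Named genes were all core subunits, 10 receptors with textbook roles (1 is not reported here), the 10 largest called differences in each direction, the 5 highest and 5 lowest tested TPM, and up to 3 called genes per list, those with the smallest p. FBXL12, FBXO8, FBXO22, FBXO28 and the neighbours of FBXO2 were named after their values were seen.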

Additional observations from a re-analysis of the deposited data

How the results depend on the processing

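Members higher and lower numbered 18 and 13 with RLE scaling and with the replicate block, and 13 and 13 with no filter on low counts. The 18 higher members became 8 with DESeq2, 6 with the length offset, 7 and 8 with limma on log2(TPM + 1) and log2(TPM + 0.1), 8 with block and length offset, 8 at an adjusted p under 0.01, 0 past an absolute log2 fold change of 0.5, and 7 to 18 with single libraries left out. The 13 lower members became 8 with the length offset, 7 with either limma setting, 7 with block and length offset, 4 at the fold threshold and 10 to 13 with single libraries left out. Over all genes, 2591 higher became 1242 with the length offset, 1495 and 1480 with limma, 1098 with block and length offset, 1587 at 0.01 and 328 at the fold threshold; 3057 lower became 1864, 1459, 1444, 1704 and, at the fold threshold, 1292. Member transcripts numbered 0 higher (2 with at least 10 counts in every library, 0 to 1 with libraries left out) and 4 lower (0 with the replicate block, 2 at 0.01, 1 to 3 with libraries left out). Transcript use called 0 members (1 with that filter, 0 to 2 with libraries left out). FBXO22 turned to -0.014 with the length offset and -0.013 with block and length offset. FBXO32, at -0.04 and not called in CPM, was called higher with limma on log2(TPM + 0.1) (1.200, adjusted p = 0.0489) and with block and length offset (1.36, adjusted p = 0.0241). Its effective length averaged 1107 bases in sµg and 3186 in 1g. The neddylation count, an alternative chosen after seeing the data, went to 4 with the length offset and 5 with block and length offset. The causes were not tested. Same-numbered libraries deviated together with r of -0.04, 0.04 and -0.02. With 3 libraries per condition, such values cannot tell whether the libraries were paired. The replicate block alone changed no call of a member gene. Members under about 1 CPM rest on few counts, and their intervals are wide.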
